A study of Mus musculus with 12 samples.

Results

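The RE1-silencing transcription factor REST, its corepressor RCOR2 and 8 RNA-binding proteins that set neuronal splicing or RNA stability were examined across mouse small-cell lung cancer (SCLC) lines. The genes are Rest, Rcor2, Srrm4, Ptbp1, Ptbp2, Elavl2, Elavl3, Elavl4, Nova1 and Celf3. They were chosen by symbol, and each matched 1 row, so that 10 of the 24458 rows of the expression table were taken.

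RNA sequencing was done on 12 libraries from 4 untreated lines, with 3 libraries per line. All 4 lines came from lung tumors of the RP mouse model, which carries floxed Rb1 and Trp53 alleles (Rb1L/L, Trp53L/L) on a mixed C57Bl/6, Balb-c and S129 background and received adenoviral Cre under a CMV promoter through the trachea, so the recombined cell type was not set by the promoter. The SCLC metastasizing cells (SMC; lines SMC#1 and SMC#2) came from a sort for high NCAM with low or absent CD44 and grow as floating spheres. The non-metastasizing cells (non-SMC; lines Non-SMC#1 and Non-SMC#2) came from a sort for low NCAM with high CD44 and grow attached. The labels pair the lines by number. Line, sort gate and growth form therefore change together, and 2 lines stand for each class. The data availability text of the study ties this series to SMC with a control or a TAZ mutant. The sample labels name SMC and non-SMC lines instead, and groups were taken from them. Values are FPKM, a fragment count divided by transcript length and library size, so levels can be compared between genes per length.

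In most cells outside the nervous system, REST binds RE1 elements near neuronal genes and recruits histone deacetylases and demethylases through SIN3 and RCOR proteins, which keeps those genes silent. SRRM4 promotes the inclusion of neuronal microexons and also redirects splicing of the Rest transcript toward a truncated product, while REST represses Srrm4. PTBP1 suppresses neuronal exons, including one in Ptbp2 whose skipping leads to decay of that transcript. ELAVL2, ELAVL3 and ELAVL4 are the neuronal Hu proteins, known as antigens in SCLC-associated neurological syndromes, and NOVA1 is likewise an onconeural antigen. Neuroendocrine SCLC is known for expressing many neuronal genes.

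Sequences were taken from RefSeq (build GRCm38.p6) as windows of 300 bases, from 250 before to 50 after an annotated transcript start. They were searched on both strands for the left and right motifs of the RE1 element, CAGCACC and GGACAG, which do not overlap each other. Windows were found for 9 of the 10 genes (all but Rest), 23 in all. None held CAGCACC, against 7.14% of all 32851 windows, and 5 held GGACAG (in Rcor2, Ptbp2, Elavl2 and Celf3), against 22.2% of all windows. Some windows of Elavl2, Elavl4 and Celf3 overlap each other, so the 23 are not separate searches. Sequence outside the windows was not searched, so an element elsewhere in these genes would be missed. The promoters of Srrm4 and Elavl3, with neither motif, and of Rcor2 and Celf3 (1 of several Celf3 windows), with GGACAG in capitals, are shown because these genes anchor the comparisons of levels.
Srrm4 promoter, chr5:116591768-116592067, minus strand: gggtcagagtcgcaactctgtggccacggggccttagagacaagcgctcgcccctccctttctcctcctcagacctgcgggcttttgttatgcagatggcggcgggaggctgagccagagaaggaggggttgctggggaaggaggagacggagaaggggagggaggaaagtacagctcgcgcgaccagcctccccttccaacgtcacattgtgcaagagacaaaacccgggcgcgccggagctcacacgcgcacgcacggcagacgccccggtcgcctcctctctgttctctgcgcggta
Elavl3 promoter, chr9:22051974-22052273, minus strand: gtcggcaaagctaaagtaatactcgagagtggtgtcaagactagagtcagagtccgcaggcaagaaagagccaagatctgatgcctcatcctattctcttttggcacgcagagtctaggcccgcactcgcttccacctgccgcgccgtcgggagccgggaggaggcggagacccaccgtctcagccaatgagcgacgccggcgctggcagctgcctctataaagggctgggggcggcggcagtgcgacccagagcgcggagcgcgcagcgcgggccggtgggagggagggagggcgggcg
Rcor2 promoter, chr19:7267144-7267443, plus strand: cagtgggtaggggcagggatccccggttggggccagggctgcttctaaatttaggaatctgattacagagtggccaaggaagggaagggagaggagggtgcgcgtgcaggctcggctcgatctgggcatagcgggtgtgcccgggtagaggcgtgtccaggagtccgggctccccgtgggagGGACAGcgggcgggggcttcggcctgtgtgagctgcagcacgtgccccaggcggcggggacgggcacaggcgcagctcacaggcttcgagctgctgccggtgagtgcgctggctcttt
Celf3 promoter, chr3:94478216-94478515, plus strand: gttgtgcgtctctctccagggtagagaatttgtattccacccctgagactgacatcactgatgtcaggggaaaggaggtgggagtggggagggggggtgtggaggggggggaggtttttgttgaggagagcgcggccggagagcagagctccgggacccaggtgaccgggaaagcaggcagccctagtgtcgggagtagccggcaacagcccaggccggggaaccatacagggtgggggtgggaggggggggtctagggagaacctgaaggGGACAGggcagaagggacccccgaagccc

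Of 28 genes listed as REST targets, 18 had windows, 27 in all. CAGCACC occurred in 5 of them and GGACAG in 7. Both motifs, 2 bases apart with at most 2 mismatches over their 13 letters, occurred in 6 of the target windows and in 0 of the 23 windows of the regulators, against 1.92% of all windows. These 6 stretches are shown because they are the closest matches to the element among the REST targets whose levels are given below. Capitals mark the stretch covered by both motifs and the 2 bases between them, and the strand is the one on which the stretch reads in this direction.
Syn1, chrX:20921129-20921153, minus strand: ggattCAGCACCGCGGTCAGagcct
Gria2, chr3:80802986-80803010, plus strand: gatttTAGCACCGCGGACAGcgctt
Grin1, chr2:25319294-25319318, plus strand: atacaGAGAACCAGGGACAGtcatc
Chrm4, chr2:91921974-91921998, minus strand: gactcCAGCACCGAGGGCACcgccc
Celsr3, chr9:108825915-108825939, plus strand: ccgttCAGCACCGTGGGCAGcactt
Gad2, chr2:22622158-22622182, plus strand: tgtggTAGCACCCTGGACAGcgcgt
A match is a description of letters, and no binding was measured.

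Depth was about 28400000 to 43900000 fragments per library, as judged by the steps between low values. Across genes, Spearman's rho was 0.983 to 0.997 for libraries of a line and 0.634 to 0.926 for libraries of different lines. Of 6 neuroendocrine markers, 5 were higher in SMC. Ncam1, the RNA of the sorting antigen, went the other way (SMC 35.3 ± 2.47 FPKM, non-SMC 48.2 ± 4.04 FPKM, SD, n = 6). Cd44 ranged from 0.0760 to 0.229 FPKM in SMC and from 76.0 to 88.5 FPKM in non-SMC. All 5 mesenchymal and all 5 fibroblast markers were lower in SMC on the mean of both pairs. The fibroblast marker Dcn went the other way in pair 1 (log2 difference 1.69, adjusted p = 4.03e-09 in limma) and was lower in pair 2 (-4.43). Markers of blood cells and vessels were at or near 0 in all libraries, apart from Cd68 at 0.371 to 4.54 FPKM. Rb1 had 2.90 to 4.16 FPKM in SMC libraries and 0.738 to 0.982 in the others, and Trp53 6.95 to 7.79 and 2.94 to 3.70, so RNA assigned to both deleted genes was present in all 12 libraries; the table does not separate the floxed exons. The part of these class-wide differences in the values below was not tested.

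Differences were fitted with limma on log2(FPKM + 1) for rows that reached 1 FPKM in 3 or more libraries, and a row was called when its adjusted p (Benjamini-Hochberg) was below 0.05. In the comparison of SMC with non-SMC, 87.1% of the 13122 rows tested were called, 44.7% higher and 42.4% lower in SMC. All 10 regulators passed the filter and were called, a share near the 87.1% of all rows. Of them, 8 were higher and 2 lower in SMC (Rest and Ptbp2). Rest passed only through non-SMC libraries, 6 genes passed only through SMC libraries, and Rcor2, Ptbp1 and Ptbp2 passed through both. The median log2 difference was 2.76 over the 10 genes and 0.02 over all rows tested. The 6 libraries of each class did not overlap for 8 of the 10 genes, against 55% of all rows. All of these 8 but Rcor2 passed the filter through 1 class alone. Neither this count, nor the median, nor the split of 8 higher and 2 lower is therefore support. With the line as the unit, and 1 residual degree of freedom, 7 of the 10 were called, against 18.2% of all rows. These 7 are the genes that passed the filter through 1 class alone, so the count is no support. The 3 that were not called were Rcor2 (adjusted p = 0.174), Ptbp1 (adjusted p = 0.484) and Ptbp2 (adjusted p = 0.443).

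**Figure D1:**
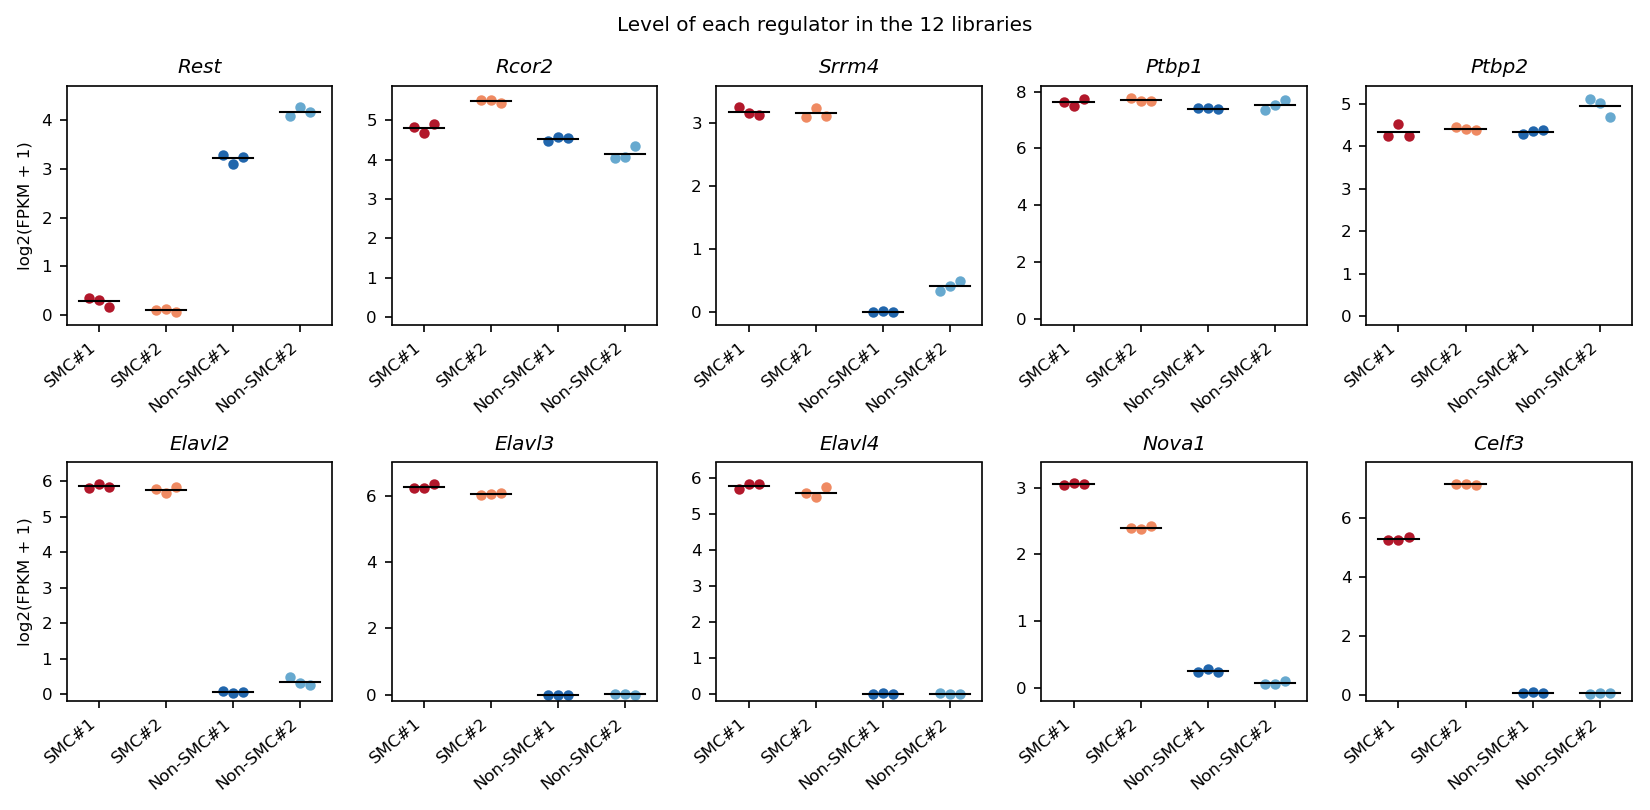
Levels of the 10 regulators as log2(FPKM + 1) on the vertical axis, with 1 dot per library, 3 libraries per line and a bar at the line mean, on a separate scale for each gene. Rest is low in both SMC lines and high in both non-SMC lines, Srrm4, Elavl2, Elavl3, Elavl4, Nova1 and Celf3 show the opposite order of the classes, and Ptbp1 and Ptbp2 overlap between the classes.

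Rest, the repressor itself, was low in SMC and well expressed in non-SMC (mm9 chr5:77694519-77712722). Rest in SMC#1 was at 0.282, 0.240 and 0.128 FPKM, and in SMC#2 at 0.0802, 0.0955 and 0.0493 FPKM. The libraries of Non-SMC#1 had 8.82, 7.63 and 8.51 FPKM of Rest, and those of Non-SMC#2 had 16.0, 18.3 and 16.9 FPKM. Every SMC library was below 0.3 FPKM and every non-SMC library above 7 FPKM. The mean was 38.3-fold higher in Non-SMC#1 than in SMC#1 and 228-fold higher in Non-SMC#2 than in SMC#2. Every SMC#2 library was under 0.1 FPKM, which limits the precision of the fold in pair 2. The log2 difference between SMC and non-SMC was -3.50 (SE 0.05, adjusted p = 1.13e-15). Whether fewer cells carried the transcript or each cell held less of it cannot be told apart in bulk RNA. The difference was larger in pair 2 (-4.07) than in pair 1 (-2.94), by 1.13 (adjusted p = 8.03e-07). Rest also differed between the non-SMC lines, 2.05-fold higher in Non-SMC#2 (adjusted p = 1.55e-07). Between the SMC lines the log2 difference was 0.18 and was not called (adjusted p = 0.0558), but it was called without SMC#1 replicate 3 (0.23, adjusted p = 0.0285), without Non-SMC#2 replicate 1 (adjusted p = 0.0415) or 2 (adjusted p = 0.0485), and with a pseudocount of 0.1 (0.83, adjusted p = 0.0013). The table gives 1 value per gene, so full-length and truncated Rest transcripts were not separated.

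Rcor2, a CoREST family corepressor that partners the demethylase KDM1A, was detected in all lines and was higher in SMC (mm9 chr19:7344254-7349715). Rcor2 in SMC#1 was at 27.6, 24.4 and 29.1 FPKM, and in SMC#2 at 44.4, 44.8 and 42.2 FPKM. In non-SMC it was at 21.3, 22.7 and 22.2 FPKM in Non-SMC#1 and at 15.4, 15.7 and 19.4 FPKM in Non-SMC#2. All 6 SMC libraries were above all 6 non-SMC libraries, and SMC#2 stood above SMC#1. SMC minus non-SMC was 0.81 on the log2 scale (SE 0.06, adjusted p = 5.18e-08). It was 0.28 in pair 1 (adjusted p = 0.0124) and 1.34 in pair 2 (adjusted p = 1.29e-08), and the pairs differed by -1.06 (adjusted p = 1.1e-05). The pair 1 difference was not called without SMC#1 replicate 3 (0.22, adjusted p = 0.0559) or with median-ratio scaling (0.19, adjusted p = 0.0582). Rcor2 made up 54.1% ± 3.04 of the summed FPKM of Rcor1, Rcor2 and Rcor3 in SMC#1, 63.7% ± 1.16 in SMC#2, 52.3% ± 1.98 for Non-SMC#1 and 45.8% ± 3.07 for Non-SMC#2 (SD, n = 3). It was the most abundant of these 3 paralogs on average in each line.

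Of 22 other REST corepressors and regulators, all tested, 11 were higher in SMC, 7 were lower and 4 were not called, with a median log2 difference of 0.10. These counts are near the shares over all rows (44.7% higher and 42.4% lower). Among those higher in SMC was Zmym2, a component of KDM1A complexes (SMC 18.9 ± 2.88 FPKM, non-SMC 8.15 ± 0.861 FPKM, SD, n = 6). Sin3b, a scaffold for histone deacetylases, had 40.6 ± 9.52 FPKM in the SMC libraries and 106 ± 8.52 in the others. Ctdsp1, a phosphatase that stabilizes REST, was at 23.6 ± 1.76 and 45.4 ± 4.13 FPKM. These 3 genes had log2 differences of 1.12, -1.39 and -0.92, and all were called. Median-ratio scaling gave the same counts, and quantile normalization gave 13 higher, 7 lower and 2 not called.

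Srrm4, the microexon splicing activator that acts on Rest RNA, showed the opposite order of the classes to Rest (mm9 chr5:116889282-117041826). Srrm4 in SMC#1 was at 8.53, 7.90 and 7.69 FPKM, and in SMC#2 at 7.56, 8.46 and 7.66 FPKM. Levels of Srrm4 in Non-SMC#1 were 0.00473, 0.00846 and 0 FPKM, and in Non-SMC#2 they were 0.255, 0.335 and 0.414 FPKM. Both SMC lines were near 8 FPKM, Non-SMC#2 was low but detected in each library, and Non-SMC#1 was at or near 0. The log2 difference was 2.95 (SE 0.05, adjusted p = 1.86e-15), with 3.17 in pair 1 and 2.74 in pair 2. The pair difference of 0.43 (adjusted p = 0.0013) came with a difference between the non-SMC lines (-0.41, adjusted p = 0.000148), and no difference between the SMC lines was detected (0.02, 95% interval -0.12 to 0.17). The mean in SMC#2 was 23.6-fold that in Non-SMC#2. Non-SMC#2 thus had the highest Rest level of the 4 lines and more Srrm4 than Non-SMC#1.

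Ptbp1 and Ptbp2 had the smallest differences of the 10 genes between the classes on the FPKM values as deposited. Ptbp1, the broadly expressed repressor of neuronal exons, was the most abundant of the 10 genes in each line (mm9 chr10:79317177-79327180). Ptbp1 in SMC#1 was at 198, 180 and 211 FPKM, and in SMC#2 at 219, 200 and 203 FPKM. Non-SMC#1 showed 170, 170 and 165 FPKM, and Non-SMC#2 showed 162, 185 and 208 FPKM. The classes overlapped, with Non-SMC#2 replicates 2 and 3 inside the SMC range. SMC exceeded non-SMC by 0.19 on the log2 scale (SE 0.07, adjusted p = 0.0201), and neither pair 1 (0.22, adjusted p = 0.0581) nor pair 2 (0.17, adjusted p = 0.132) was called alone. Pair 1 was called without SMC#1 replicate 2 (0.28, adjusted p = 0.0342), without Non-SMC#2 replicate 1 (adjusted p = 0.0182) or 3 (adjusted p = 0.0344), and pair 2 was called without Non-SMC#2 replicate 3 (0.26, adjusted p = 0.0285). The size depended on the scaling: quantile normalization gave 0.50 in pair 1 (adjusted p = 0.00116) and 0.65 in pair 2 (adjusted p = 0.000144), and median-ratio scaling gave 0.25 in pair 2 (adjusted p = 0.028). Without the trend and robust options pair 1 was called (adjusted p = 0.038).

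Ptbp2, the neural paralog of Ptbp1, was lower in SMC in pair 2, with no detectable difference in pair 1 (mm9 chr3:119421660-119486306). Ptbp2 in SMC#1 was at 18.1, 21.8 and 17.99 FPKM, and in SMC#2 at 20.9, 20.2 and 19.9 FPKM. The libraries of Non-SMC#1 had 18.5, 19.7 and 19.7 FPKM of Ptbp2, and those of Non-SMC#2 had 33.7, 31.4 and 24.9 FPKM. SMC#1, SMC#2 and Non-SMC#1 lay in one range, and Non-SMC#2 lay above it. Its log2 difference was -0.27 (SE 0.07, adjusted p = 0.00429), and it was not called after quantile normalization (-0.11, adjusted p = 0.197). In pair 1 it was -0.0044 (95% interval -0.23 to 0.22), in pair 2 it was -0.53 (adjusted p = 0.000408), and the pairs differed by 0.52 (adjusted p = 0.00797). The pair difference was not called with median-ratio scaling (0.36, adjusted p = 0.0508) or quantile normalization (0.32, adjusted p = 0.0861). The ratio of Ptbp1 to Ptbp2 was 10.3 ± 1.83 in SMC#1, 10.2 ± 0.290 in SMC#2, 8.74 ± 0.441 for Non-SMC#1 and 6.35 ± 1.82 for Non-SMC#2 (SD, n = 3). Ptbp1 RNA thus exceeded Ptbp2 RNA in all 12 libraries, by 4.81-fold to 11.7-fold.

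**Figure D2:**
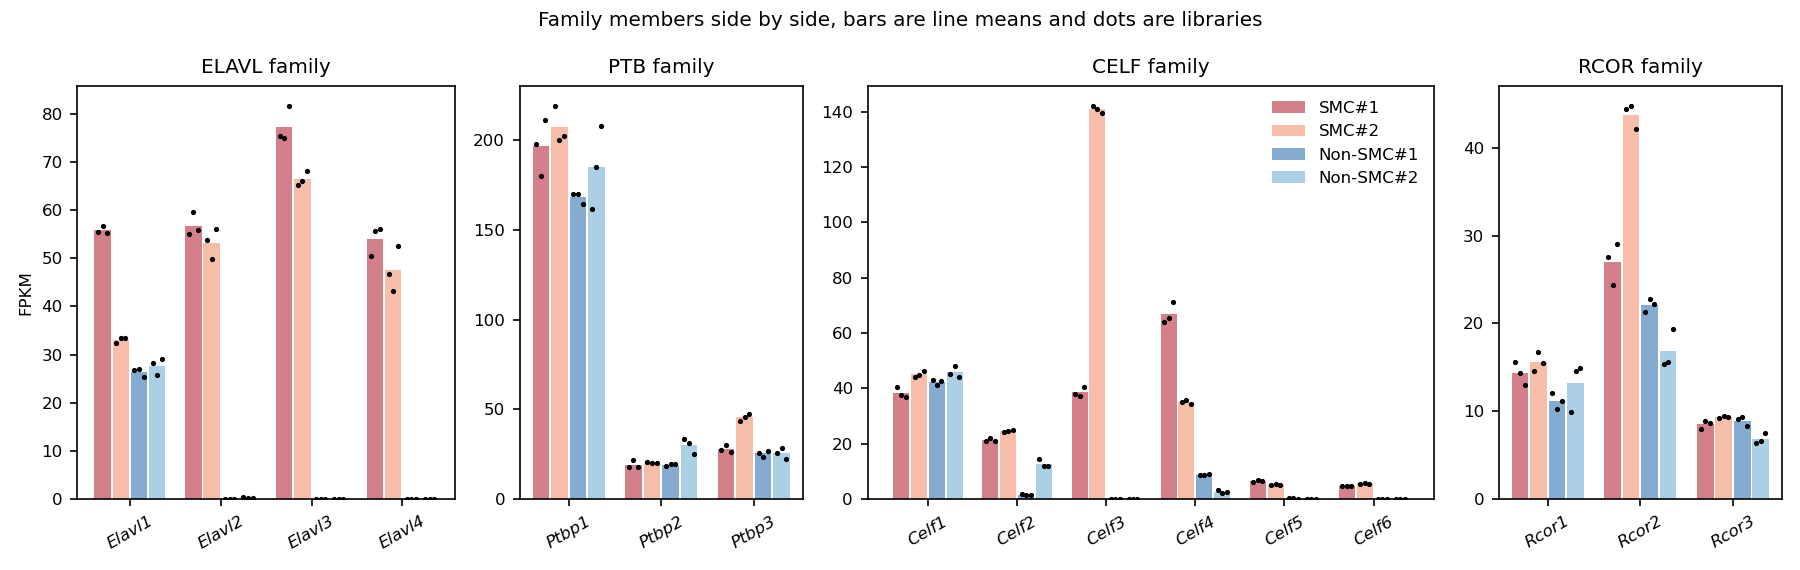
FPKM of the ELAVL, PTB, CELF and RCOR families by gene on linear axes, with bars for the mean of each of the 4 lines (n = 3) and dots for the libraries. Elavl2, Elavl3, Elavl4 and Celf3 are near 0 in both non-SMC lines, while Elavl1, Celf1, Ptbp1 and Rcor1 are present in all lines.

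The 3 neuronal Hu genes were among the genes of this group with the largest differences. Elavl2 (mm9 chr4:90917457-91066675) was detected at a low level in each non-SMC library. Elavl2 in SMC#1 was at 54.96, 59.6 and 55.9 FPKM, and in SMC#2 at 53.7, 49.9 and 56.1 FPKM. In non-SMC it was at 0.0707, 0.0181 and 0.0459 FPKM in Non-SMC#1 and at 0.393, 0.235 and 0.189 FPKM in Non-SMC#2. The SMC lines overlapped with each other and were all above 49 FPKM. The log2 difference was 5.60 (SE 0.05, adjusted p = 1.63e-17), and the mean was 1265-fold higher in SMC#1 than in Non-SMC#1 and 196-fold higher in SMC#2 than in Non-SMC#2. Within non-SMC, Elavl2 was higher in Non-SMC#2 (log2 difference -0.28, adjusted p = 0.00514), a difference not called after quantile normalization (-0.20, adjusted p = 0.0664).

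Elavl3 (mm9 chr9:21819449-21856467) was the most abundant Hu gene in SMC. Elavl3 in SMC#1 was at 75.3, 75.0 and 81.7 FPKM, and in SMC#2 at 65.3, 66.1 and 68.1 FPKM. Levels of Elavl3 in Non-SMC#1 were 0, 0 and 0 FPKM, and in Non-SMC#2 they were 0.0109, 0.0147 and 0 FPKM. It was listed at 0 in 4 of the 6 non-SMC libraries and was near 0 in the other two. The log2 difference was 6.18 (SE 0.04, adjusted p = 1.22e-18), with 6.29 in pair 1 and 6.06 in pair 2. The SMC lines differed by 0.21 (adjusted p = 0.00513), a difference not called with median-ratio scaling (adjusted p = 0.177) or quantile normalization (adjusted p = 0.546). The pairs differed by 0.23 (adjusted p = 0.024), which was not called without SMC#1 replicate 3 (adjusted p = 0.0617) or SMC#2 replicate 1 (adjusted p = 0.054), and was 0.10 with median-ratio scaling (adjusted p = 0.271) and 0.07 with quantile normalization (adjusted p = 0.511).

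Elavl4 (mm9 chr4:109876342-110024516) encodes HuD, the best known Hu antigen of SCLC. Elavl4 in SMC#1 was at 50.6, 55.7 and 56.0 FPKM, and in SMC#2 at 46.7, 43.1 and 52.7 FPKM. Non-SMC#1 showed 0, 0.0177 and 0 FPKM, and Non-SMC#2 showed 0.0150, 0 and 0 FPKM. It was listed at 0 in 4 of the 6 non-SMC libraries. Its log2 difference was 5.68 (SE 0.05, adjusted p = 1.63e-17). The pair difference of 0.19 was not called (adjusted p = 0.141), except without SMC#2 replicate 3 (0.26, adjusted p = 0.0339). The SMC lines differed by 0.19 (adjusted p = 0.0455), a call that was lost when any 1 of 8 libraries was left out (adjusted p from 0.0536 to 0.195; SMC#1 replicates 2 and 3, SMC#2 replicates 1 and 2, all Non-SMC#1 replicates and Non-SMC#2 replicate 2).

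Elavl1, the broadly expressed paralog, was present in all lines, at 55.8 ± 0.823 FPKM in SMC#1, 33.1 ± 0.587 in SMC#2, 26.4 ± 0.817 for Non-SMC#1 and 27.7 ± 1.73 for Non-SMC#2 (SD, n = 3). Elavl2, Elavl3 and Elavl4 together made up 77.1% ± 0.6247 of the summed ELAVL FPKM in SMC#1 and 83.5% ± 0.761 in SMC#2. Their share was 0.192% ± 0.0666 for Non-SMC#1 and 1.02% ± 0.414 for Non-SMC#2. No source used here states how reads shared by these similar paralogs were assigned, so the split within a family is less certain than its sum.

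Nova1 (mm9 chr12:47795504-47919762), a splicing factor that binds YCAY clusters, was present in SMC at a modest level. Nova1 in SMC#1 was at 7.25, 7.39 and 7.32 FPKM, and in SMC#2 at 4.28, 4.23 and 4.35 FPKM. The libraries of Non-SMC#1 had 0.182, 0.213 and 0.175 FPKM of Nova1, and those of Non-SMC#2 had 0.0423, 0.0415 and 0.0714 FPKM. The 4 lines did not overlap with each other, with SMC#1 highest and Non-SMC#2 lowest. Its log2 difference was 2.57 (SE 0.03, adjusted p = 3.75e-16). The mean was 38.5-fold higher in SMC#1 than in Non-SMC#1 and 82.9-fold higher in SMC#2 than in Non-SMC#2. On the log2(FPKM + 1) scale the difference was larger in pair 1 by 0.48 (adjusted p = 4.76e-05), but with a pseudocount of 0.1 the sign turned and it was not called (-0.18, adjusted p = 0.314), nor was it after quantile normalization (0.12, adjusted p = 0.202). Between the SMC lines Nova1 was 1.71-fold higher in SMC#1 (adjusted p = 9.8e-08).

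Celf3 (mm9 chr3:94282217-94296120), a neural CELF splicing regulator, differed most between the SMC lines. Celf3 in SMC#1 was at 37.8, 37.3 and 40.6 FPKM, and in SMC#2 at 142, 141 and 139 FPKM. In non-SMC it was at 0.0484, 0.0863 and 0.0572 FPKM in Non-SMC#1 and at 0.0383, 0.0660 and 0.0650 FPKM in Non-SMC#2. SMC#2 was 3.65-fold above SMC#1, and all non-SMC libraries were below 0.1 FPKM. The log2 difference between SMC and non-SMC was 6.14 (SE 0.04, adjusted p = 1.22e-18), with 5.22 in pair 1 and 7.07 in pair 2. The pairs differed by -1.85 (adjusted p = 3.8e-10), as did the SMC lines by -1.84 (adjusted p = 1.64e-11), while the non-SMC lines differed by 0.01 (95% interval -0.11 to 0.13), which was not called except after quantile normalization (0.17, adjusted p = 0.0293). Celf3 was 21.9% ± 0.493 of the summed CELF FPKM in SMC#1 and 54.9% ± 0.541 in SMC#2, with 0.121% ± 0.0402 for Non-SMC#1 and 0.0926% ± 0.0275 for Non-SMC#2 (SD, n = 3). The CELF family is also one of similar paralogs.

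**Figure D3:**
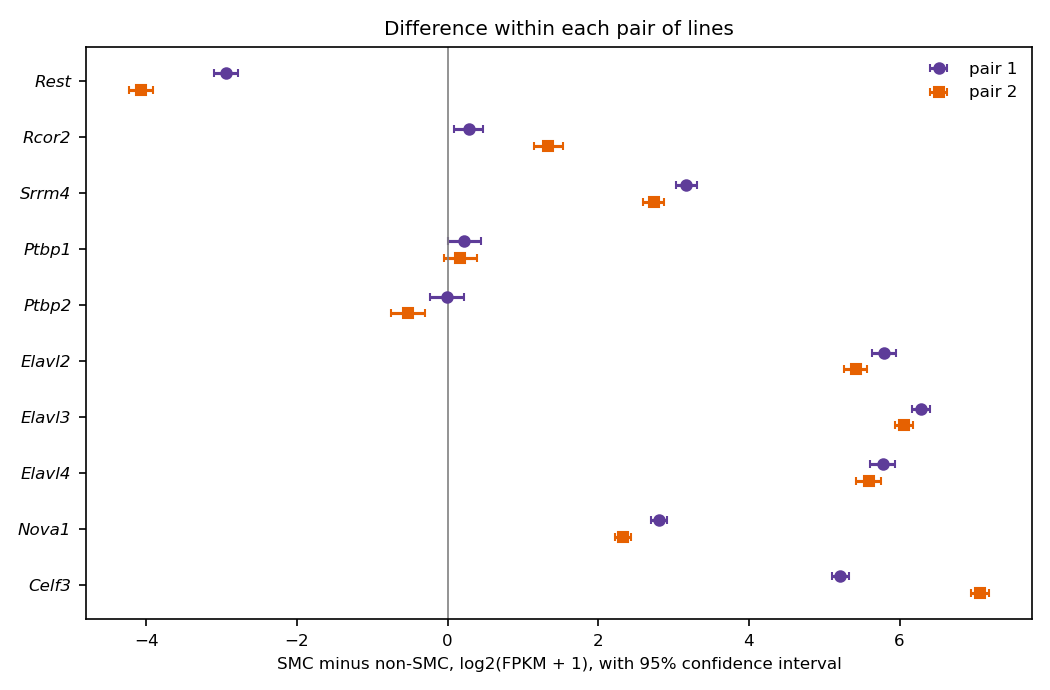
Difference between SMC and non-SMC within pair 1 (circles) and pair 2 (squares) for each of the 10 genes, in log2(FPKM + 1) with 95% confidence intervals from limma. The intervals of the pairs overlap for Ptbp1, Elavl3 and Elavl4 and lie apart for the other genes, with pair 2 farther from 0 in Rest, Rcor2, Ptbp2 and Celf3.

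Across the 4 lines, pair 1 alone called 8 of the 10 genes (80.4% of all rows) and pair 2 called 9 (82% of all rows). The pair difference was called in 8 genes, against 60.6% of all rows, and its median over all rows was 0.16 under the main scaling, 0.01 under median-ratio scaling and -0.02 under quantile normalization. Relative to the median of 0.16, the pair difference was 0.98 for Rest, -1.21 for Rcor2 and -2.01 for Celf3, and 0.07 for Elavl3. Among all rows called for the pair difference, 63% were positive under the main scaling, 51.7% under median-ratio scaling and 48.4% under quantile normalization. The SMC lines differed in 5 of the 10 genes, against 56.8% of all rows, and the non-SMC lines in 6, against 57.3%. For the SMC lines the positive share of calls was 63.8%, 51.4% and 48.8% under the 3 scalings.

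Ordered by mean level, Ptbp1 ran from SMC#2 through SMC#1 and Non-SMC#2 to Non-SMC#1. Under the main setting no neighbours in that order differed beyond their spread. This included the middle step between SMC#1 and Non-SMC#2 (0.09, adjusted p = 0.408), a contrast in which 80.8% of all rows were called. Non-SMC#1 minus Non-SMC#2 was called without Non-SMC#2 replicate 1 (-0.22, adjusted p = 0.0446). The ends of the order, SMC#2 and Non-SMC#1, did differ (0.30, adjusted p = 0.0144; 82.6% of all rows were called). Each step of the Rcor2 order (SMC#2, SMC#1, Non-SMC#1, Non-SMC#2) and of the Nova1 order (SMC#1, SMC#2, Non-SMC#1, Non-SMC#2) was called. For Ptbp2, only the step from Non-SMC#2 to the next line was called.

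Genes known as REST targets were mostly higher in SMC, in which Rest was low. Of 28 listed targets, 24 were tested, and 23 of them were higher in SMC and 1 was lower, with a median log2 difference of 3.39, against 44.7% higher and 42.4% lower over all rows. Of the targets tested, only Syn1, Tubb3, Bdnf and Stmn2 reached 1 FPKM in any non-SMC library. The others passed the filter through SMC libraries alone, which largely set their direction. The list was also drawn up with earlier results of these data known. Neither its counts nor its median is therefore independent evidence. Chga, a granule protein of neuroendocrine cells (8.30), Stmn3, a microtubule regulator (6.88), and Snap25, a vesicle fusion protein (5.41), had the largest log2 differences. Chga ranged from 214 to 485 FPKM across SMC libraries and from 0 to 0.0401 across non-SMC libraries. Stmn3 ranged from 100.2 to 143 and from 0 to 0.0663 FPKM, and Snap25 from 38.1 to 86.8 and from 0 to 0.887 FPKM. Bdnf, a neurotrophin with an RE1 element in its gene, was the exception. It ranged from 0.850 to 3.40 FPKM across SMC and from 8.29 to 15.4 across non-SMC libraries, with a log2 difference of -1.95 (SE 0.08, adjusted p = 5.04e-11). Quantile normalization left 21 targets higher, 1 lower and 2 not called, Stmn2 and Scn2a1.

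Of the targets whose promoter stretches are printed above, Gad2 was not tested and the others were higher in SMC. Syn1, a synaptic vesicle protein, had 7.38 to 40.9 FPKM in SMC libraries and 0.515 to 5.11 in the others. Gria2, a glutamate receptor subunit, was at 12.4 to 15.3 FPKM in SMC and was listed at 0 in all 6 non-SMC libraries. Grin1, another glutamate receptor subunit, had 6.26 to 24.5 FPKM against 0 to 0.0147. Celsr3, a cadherin of neurons, had 14.0 to 19.8 FPKM against 0.00303 to 0.492, and the muscarinic receptor gene Chrm4 had 0.836 to 1.87 against 0 to 0.0978. All SMC libraries were thus above all non-SMC libraries for each of these tested genes. Over all rows, the classes did not overlap in 55%. Among these genes only Syn1 reached 1 FPKM in any non-SMC library, and the others passed the filter through SMC libraries alone. They also come from the list of REST targets above, so their separation is not independent evidence either. Gad2, a GABA-synthesizing enzyme, was not tested: it was listed at 0 in all 6 SMC libraries and was at 0 to 0.0678 in non-SMC. The other targets that were not tested were Calb1 (listed at 0 in non-SMC and at 0.760 to 1.27 FPKM in SMC), Glra1 and Crh.

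Of 24 other splicing factors listed, 23 were tested, 17 were higher in SMC, 3 were lower and 3 (Celf1, Mbnl3 and Rbfox2) were not called, with a median log2 difference of 0.76. Over all rows, 44.7% were higher, 42.4% were lower and the median was 0.02. Nova2, Srrm3, Rbfox1, Rbfox3, Celf5, Celf6 and Khdrbs2 reached 1 FPKM only in SMC libraries, so the filter largely set their direction. These splicing factors were also chosen with earlier results of these data known. Neither the counts nor the median of this list is therefore support. Srrm3, the paralog of Srrm4 that also acts on microexons, had 14.1 to 17.8 FPKM in SMC libraries and 0 to 0.0321 in the others (log2 difference 4.07). Msi1, an RNA-binding protein of neural progenitors, was at 22.8 ± 1.19 FPKM and 1.53 ± 1.09 (SD, n = 6; 3.36). The 3 that were lower were Mbnl1 (-2.48), Qk (-2.18) and Mbnl2 (-0.63). Mbnl1, which promotes splicing patterns of differentiated tissue, measured 15.8 ± 1.54 FPKM in SMC and 92.7 ± 12.02 in non-SMC, and Qk, a splicing factor of glia and muscle, at 12.04 ± 0.954 and 58.2 ± 4.05. Median-ratio scaling gave the same counts, and quantile normalization gave 19 higher, 4 lower and none not called.

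**Figure D4:**
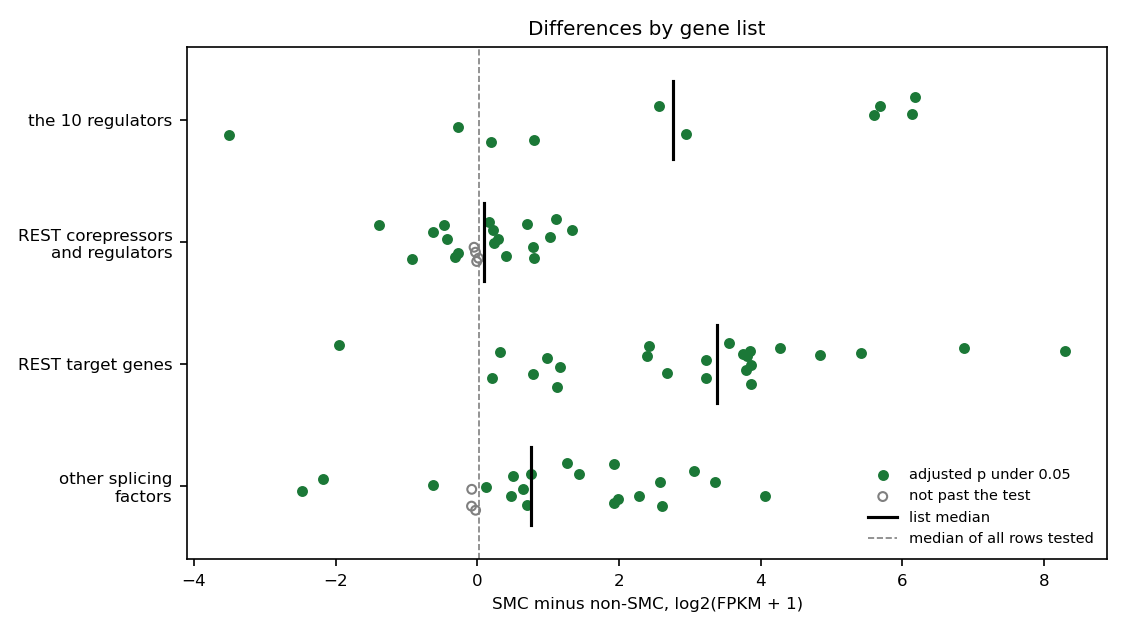
Log2 difference between SMC and non-SMC for the tested genes of each list, 1 dot per gene, filled where the adjusted p was under 0.05, with a bar at the list median and a dashed line at the median of all rows tested (0.02). The REST target list has its median at 3.39 with Bdnf alone on the left, and the corepressor list straddles 0 with a median of 0.10.

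The genes most like 3 of the regulators were sought among the 13122 rows tested, with all regulators of the group left out. Likeness was the mean absolute difference in log2(FPKM + 1) over the 12 libraries after centring each row. The genes most like Rest were Ereg (0.0878), Tnfrsf23 (0.115) and Kctd11 (0.120). Ereg, an epidermal growth factor receptor ligand, was at 0 to 0.00888 FPKM in SMC, 7.30 to 7.78 in Non-SMC#1 and 13.6 to 16.3 in Non-SMC#2. For Srrm4 they were Ildr1 (0.0567), Nrxn2 (0.0770) and 9330182L06Rik (0.0899). Nrxn2, a presynaptic adhesion protein, was at 6.53 to 7.72 FPKM in the SMC lines, 0.00527 to 0.0267 in Non-SMC#1 and 0.160 to 0.272 in Non-SMC#2. For Elavl3 they were Pcp4 (0.119), Scg3 (0.156) and Calca (0.198). Scg3, a granule protein, was at 54.0 to 60.1 FPKM in SMC and was listed at 0 in each non-SMC library. These likenesses span 4 lines, and many rows separate the classes.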

How the data were processed

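RNA was measured in 12 libraries of 4 mouse SCLC lines, 2 SMC and 2 non-SMC, with 3 libraries per line. Total RNA libraries were read by the authors on an Illumina NovaSeq (paired ends), and the submitters' processing notes name STAR 2.6.1b, DESeq2 and mm10. The deposited values are FPKM, 1 per row and library; the tool that made them, its strand setting and its treatment of shared reads are not given in the sources used here, so antisense or overlapping genes cannot be told apart. FPKM is a share of each library, and a 0 can be a failed estimate, so genes at 0 are described as listed at 0, with no fold against them. Positions in the table are those of mm9: of 22882 rows matched by symbol to GRCm38, 2531 overlapped its position, and 10606 had exactly its length. Positions are printed as mm9 and promoter windows as GRCm38.p6.

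Rows at 1 FPKM or more in at least 3 libraries were kept (13122 of 24458). Values were transformed to log2(FPKM + 1), which understates changes of low genes. A mean per line was fitted with limma 3.58.1 (trend and robust) in R 4.3.3, and SMC against non-SMC was the mean of both within-pair differences. Tests were two-sided, with Benjamini-Hochberg adjustment over all rows kept. The procedure was tested on simulated data. The table held FPKM, so no count test was run. Depth was estimated from the spacing of low values in 2931 one-transcript genes with a fragment length of 300 assumed. Nothing says that libraries of a line are separate cultures, so p-values measure the spread between these libraries, which may be technical.

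The members and lists were chosen with earlier results of these data known. All 10 members are named, up to 2 genes per direction with the largest difference in each list (3 for REST targets), and the 3 most similar rows for Rest, Srrm4 and Elavl3; a gene that the rule would name is not reported here. Marker genes, targeted genes, the targets with a printed stretch and those at the edges of a list are named in addition, some after their values were seen. Alternatives were a pseudocount of 0.1, no filter, median-ratio scaling, quantile normalization, no trend and robust options, a replicate block, the line as the unit and leaving out each library.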

Additional observations from a re-analysis of the deposited data

Results flagged for a closer look

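On the FPKM values as deposited, in 8 of the 10 genes the difference between SMC and non-SMC was not the same in both pairs of lines, by the interaction test in limma (pair 1 minus pair 2). The difference was -1.85 for Celf3 (adjusted p = 3.8e-10), -1.06 for Rcor2 (adjusted p = 1.1e-05) and 1.13 for Rest (adjusted p = 8.03e-07), and it was 0.52 for Ptbp2 (adjusted p = 0.00797). In these 4 genes pair 2 lay farther from 0. The other values were 0.48 for Nova1 (adjusted p = 4.76e-05), 0.43 for Srrm4 (adjusted p = 0.0013), 0.37 for Elavl2 (adjusted p = 0.00725) and 0.23 for Elavl3 (adjusted p = 0.024). Ptbp2, Elavl2 and Elavl3 were not called with median-ratio scaling or quantile normalization, and Nova1 was not called with quantile normalization (0.12, adjusted p = 0.202) and was -0.18 with a pseudocount of 0.1. The pair difference was called in 60.6% of all rows tested.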

How the results depend on the processing

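The count of the 10 regulators called between SMC and non-SMC was 10 under each alternative except quantile normalization (9) and the line as the unit (7), and all kept their direction in this comparison. Calls that separate the lines or the pairs moved more. The pair difference was called in 8 genes, in 5 under median-ratio scaling and in 4 under quantile normalization, and the SMC lines differed in 5 genes and in 3 under each of these scalings. Rest, Rcor2, Srrm4 and Celf3 were called for the pair difference under both scalings. A called value changed sign in 2 cases: the pair difference of Nova1 became -0.18 with a pseudocount of 0.1, and the SMC line difference of Elavl4 became -0.0010 under quantile normalization. The cause was not tested. With the line as the unit 2389 rows were called (1114 higher and 1275 lower in SMC), against 11430 with the library as the unit.

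With the replicate block 10 of 10 genes were called between SMC and non-SMC, and the pair difference was called in 8 and the SMC line difference in 4, with Elavl4 lost (adjusted p = 0.0554). The replicate numbers did not pair the libraries throughout: correlations of same-numbered deviations ran from -0.38 to 0.31 over 6 pairs of libraries. The 2 above 0.1 were both in pair 2 (0.31 and 0.28), and for both the own number was the best match. Leaving out 1 library at a time gave 10 genes called each time between SMC and non-SMC, 7 to 9 for the pair difference and 4 to 6 for the SMC lines. Values under 0.1 FPKM limit the precision of the folds of Elavl2, Celf3 and Nova1 (low in non-SMC) and of Rest in pair 2 (low in SMC#2).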

Other observations

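Among the REST corepressors, Hdac1 differed more between the lines of a class than between the classes. In pair 1 Hdac1 had 1.06 ± 0.112 FPKM (SMC#1) and 1.04 ± 0.269 FPKM (Non-SMC#1). In pair 2 it had 7.01 ± 0.351 FPKM (SMC#2) and 13.9 ± 2.27 FPKM (Non-SMC#2; SD, n = 3). The log2 difference was -1.96 between the SMC lines (adjusted p = 8.5e-09 in limma) and -2.87 between the non-SMC lines (adjusted p = 1.59e-10). Hdac1 was also lower in SMC on the mean of both pairs (-0.43, adjusted p = 0.000188). The difference was -0.89 in pair 2 (adjusted p = 7.06e-06) and was not called in pair 1 (0.03, adjusted p = 0.829). The pairs differed by 0.92 (adjusted p = 0.000245). Hdac2, its close paralog, was at 135 ± 3.58 and 115 ± 9.82 FPKM in SMC#1 and SMC#2, and at 70.6 ± 4.33 and 74.0 ± 12.8 in Non-SMC#1 and Non-SMC#2. Hdac1 was singled out after its values were seen, and the assignment of reads shared with similar sequences is not known.

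Bdnf was the 1 REST target of those tested that was lower in SMC over both pairs, although Scn2a1 was also lower in pair 2 (-0.25, adjusted p = 0.00709), and the size of the Bdnf difference changed between pairs: -1.11 in pair 1 and -2.79 in pair 2, with a pair difference of 1.68 (adjusted p = 1.33e-06 in limma). Its line means were 8.33 ± 0.0648 FPKM in Non-SMC#1, 12.6 ± 2.78 in Non-SMC#2, 3.32 ± 0.0832 in SMC#1 and 0.940 ± 0.114 in SMC#2 (SD, n = 3). By line means, Rest ran in the same order, from Non-SMC#2 down to SMC#2. The last Rest step, from SMC#1 (0.217 FPKM) to SMC#2 (0.0750 FPKM), was not called under the main setting (0.18, adjusted p = 0.0558 in limma). A relation between Bdnf and Rest was not tested.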
